A study of Homo sapiens with 6 samples.

Results

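The genes KRT5, KRT7, KRT8, KRT15, KRT17, KRT18, KRT19, VIM, NES and NEFL encode keratins, vimentin, nestin and the neurofilament light chain, which belong to the intermediate filament proteins. They were followed through every probe set that the platform annotation assigns to one of these symbols alone. The rule gave 17 probe sets for 9 of the 10 genes, among 41091 probe sets with 1 symbol and 54613 probe sets tested. KRT17 had no such probe set and is not analysed here. Sublines of PC-3, a human prostate carcinoma cell line established from a bone metastasis, were compared: PC-3/Mc with 3 arrays and PC-3/S with 3 arrays. The labels name no treatment and no genetic change in either line, and both were harvested below confluence. Whether either line is a single clone, and whether the biological replicates came from separate cultures, is not stated in the labels, so the p-values speak only to the variation among these 6 arrays, which may be technical. Each line was measured on one-colour Affymetrix arrays, and values are log2 expression per probe set as deposited.

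Intermediate filaments are cytoskeletal polymers that give a cell mechanical strength. Keratins are the filaments of epithelia and are obligate pairs, in which an acidic type I chain such as KRT18, KRT19 or KRT15 joins a basic type II chain such as KRT8, KRT7 or KRT5. In the prostate gland KRT8 and KRT18 mark luminal cells, and KRT5 and KRT15 are keratins of basal cells. Vimentin is the filament of mesenchymal cells and is also made by many cultured carcinoma lines, nestin is a filament protein of progenitor cells that assembles together with vimentin, and the neurofilament light chain belongs to neurons.

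The lines differed in both directions within the family. NES, KRT18, NEFL and KRT8 were higher in PC-3/Mc, by 3.31-fold, 2.23-fold, 2.16-fold and 2.04-fold at the brightest probe set of each. KRT7, KRT15, KRT19, VIM and KRT5 were lower in PC-3/Mc, by 2.91-fold, 1.72-fold, 1.39-fold and 1.28-fold for the first 4 and by at least 1.08-fold for KRT5. Among the members, at their brightest probe sets, both luminal partners thus lay on one side and the other measured keratins, with vimentin, on the other side. Keratins outside the members moved in both directions. In bulk RNA, fewer cells with a transcript and less of it per cell cannot be told apart. All 9 measured genes passed the test at their brightest probe set, 4 higher and 5 lower, where 43.7% of all 19775 genes passed it (22.3% higher and 21.4% lower). Over every probe set of these genes 7 were higher, 7 lower and 3 not called, while 35.9% of all probe sets passed (18.4% higher and 17.5% lower). PC-3/Mc and PC-3/S arrays were fully separated at 14 of the 17 probe sets, against 45.3% of all probe sets, and 6 of the 17 were called with a difference of at least 2-fold, against 8.35%. The members' median difference at the brightest probe set was -0.36, against -0.03 for all genes, although members were chosen with earlier results of these data known.

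Each difference is the PC-3/Mc mean less the PC-3/S mean in log2 units, with its standard error (SE). Differences were tested with limma over all probe sets, with Benjamini-Hochberg adjustment, and called at an adjusted p under 0.05. Means are given ± SD over n = 3 arrays per line. PC-3 cells are known to lack CTNNA1 by deletion, and over the 5 probe sets of that gene the highest array value was 5.18. It was taken as a rough floor after its values were seen. Where the dimmer line lay at or under 5.18 the fold is a lower bound against that floor, and where both lines did no fold is given. Of the 17 probe sets, 5 lay under it in both lines. At the brightest probe set 0 of the 9 measured members did, against 6881 of all 19775 genes. The shares given over all genes thus include many genes that read at the floor. Levels depend on the probes, so the floor is approximate for other probe sets and readings of different genes were not ranked.

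**Figure D1:**
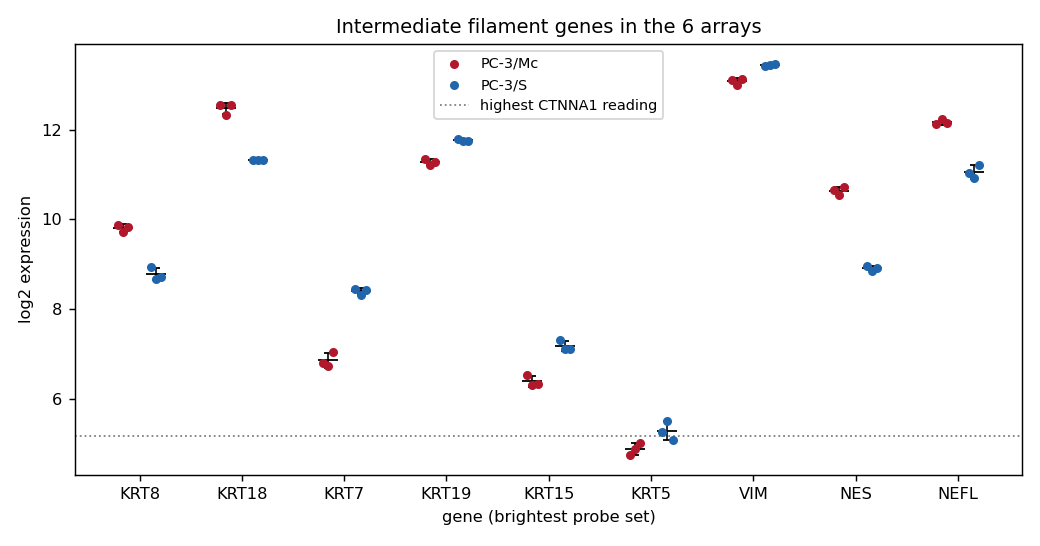
Log2 expression of the 9 measured genes at their brightest probe set (y axis, log2 scale) in the 3 PC-3/Mc arrays (red, left of each pair) and the 3 PC-3/S arrays (blue, right); bars show mean ± SD and the dotted line the highest CTNNA1 reading, 5.18. The arrays of the lines do not overlap for any of the 9 genes, with PC-3/Mc above PC-3/S for KRT8, KRT18, NES and NEFL and below it for KRT7, KRT19, KRT15, KRT5 and VIM.

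The arrays of both lines were alike in scale. Array medians lay between 4.98 and 5.09, and arrays correlated across probe sets at 0.995 to 0.997 within a line and 0.949 to 0.952 between lines, and no pair of arrays was identical. Of 5 epithelial markers, which include members, 4 rose and 1 fell in PC-3/Mc, with means of 7.67 to 12.48 in PC-3/Mc and 4.0 to 11.76 in PC-3/S. Among them, EPCAM was at 11.88 ± 0.19 in PC-3/Mc, against 6.44 ± 0.22 in PC-3/S, and E-cadherin (CDH1) at 7.67 ± 0.19 in PC-3/Mc, against 4.0 ± 0.08 in PC-3/S, under the floor. Of 4 measured prostate luminal markers, 1 was higher and 1 lower, with the homeobox gene HOXB13 at 10.32 ± 0.04 in PC-3/Mc, against 9.56 ± 0.01 in PC-3/S, and the protease gene TMPRSS2 at 5.84 ± 0.18 in PC-3/Mc, against 6.24 ± 0.05 in PC-3/S. The kallikrein genes KLK3 and KLK2 were not called (-0.34 and -0.12, adjusted p = 0.0914 and 0.358). The basal keratin KRT14 read under the floor in both lines. Of 4 measured leukocyte markers all read under the floor in both lines, as did 2 of 4 endothelial and 1 of 5 fibroblast markers. Measured fibroblast and endothelial markers moved in both directions (3 lower and 1 higher, and 1 lower and 1 higher, in PC-3/Mc), and their part in the results was not tested. Beside these marker counts, 22.3% of all 19775 genes were called higher and 21.4% lower.

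Promoter windows were taken from the RefSeq promoter table (GRCh38.p14) for 4 members, NES and KRT8, higher in PC-3/Mc, and VIM and KRT5, lower. These 4 were not chosen by their direction, and windows of the other members are not shown. Each window runs from 250 bases before to 50 bases after a transcript start, 5′ to 3′ on the gene's strand, and is in lower case with motif matches in capitals. The table lists 1 start for each of these genes, which need not be the start used in these lines.
NES, chr1:156677358-156677657, minus strand: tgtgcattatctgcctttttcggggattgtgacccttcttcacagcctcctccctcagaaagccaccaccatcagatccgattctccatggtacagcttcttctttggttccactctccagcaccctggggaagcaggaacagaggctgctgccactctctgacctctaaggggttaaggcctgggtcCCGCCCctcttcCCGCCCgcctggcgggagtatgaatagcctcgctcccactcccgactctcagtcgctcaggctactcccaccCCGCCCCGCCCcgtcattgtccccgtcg
KRT8, chr12:52926420-52926719, minus strand: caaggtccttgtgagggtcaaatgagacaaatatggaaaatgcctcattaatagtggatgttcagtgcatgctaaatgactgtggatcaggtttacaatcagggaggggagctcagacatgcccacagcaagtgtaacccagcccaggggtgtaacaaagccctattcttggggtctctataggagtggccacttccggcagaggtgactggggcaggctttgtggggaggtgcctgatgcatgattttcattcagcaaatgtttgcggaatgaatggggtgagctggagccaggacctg
VIM, chr10:17227991-17228290, plus strand: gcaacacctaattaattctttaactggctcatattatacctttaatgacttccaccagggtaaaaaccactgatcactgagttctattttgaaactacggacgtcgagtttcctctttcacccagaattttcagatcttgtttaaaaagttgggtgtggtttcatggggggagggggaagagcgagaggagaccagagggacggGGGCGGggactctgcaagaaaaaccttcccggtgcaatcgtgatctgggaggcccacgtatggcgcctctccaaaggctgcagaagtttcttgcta
KRT5, chr12:52520345-52520644, minus strand: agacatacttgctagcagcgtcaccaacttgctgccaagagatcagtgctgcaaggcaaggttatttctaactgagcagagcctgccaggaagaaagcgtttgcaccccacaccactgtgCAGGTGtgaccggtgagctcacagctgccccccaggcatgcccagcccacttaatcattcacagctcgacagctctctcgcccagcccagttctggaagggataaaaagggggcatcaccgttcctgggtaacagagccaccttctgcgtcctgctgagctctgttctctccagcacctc
The 4 motifs searched, on both strands, were CAGGTG (the E-box that Snail and ZEB factors are known to bind), GGGCGG (the GC box), TATAAA (the TATA box) and TGANTCA (the AP-1 site). NES held 4 GC boxes, all on the opposite strand, starting at -62, -50, 23 and 28 from the transcript start, of which the last pair overlapped by 1 base. VIM held 1 GC box at -46, and KRT5 held 1 E-box at -130. None of these letters was found in the KRT8 window. Of 35116 windows of the same length, 45.0% held the GC box, 20.6% the E-box, 11.5% the TATA box and 7.71% the AP-1 site, and each match is given as a description only.

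The luminal partners KRT8 and KRT18 were both higher in PC-3/Mc. KRT8, the type II keratin of simple epithelia, read 9.89, 9.72 and 9.83 in PC-3/Mc and 8.94, 8.68 and 8.73 in PC-3/S. The difference was 1.03 ± 0.10 (SE; adjusted p = 3.62e-06), and 7.88% of all probe sets differed by more in either direction. The lowest PC-3/Mc array lay well above the highest PC-3/S array. KRT18, its type I partner, read 12.54, 12.33 and 12.56 in PC-3/Mc and 11.33, 11.32 and 11.32 in PC-3/S. The difference was 1.16 ± 0.09 (adjusted p = 7.33e-07), and the PC-3/S arrays were within a few hundredths of each other.

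Both genes were read by a single probe set of the _x_at class, whose probes may match several transcripts. RefSeq lists 52 genes named as KRT8 pseudogenes and 68 named as KRT18 pseudogenes, and the share of their transcripts in these signals was not tested. The only such gene of this pair with its own probe sets, KRT8P12, was chosen after its values were seen. Its brighter probe set read 6.15 ± 0.14 in PC-3/Mc, against 6.44 ± 0.12 in PC-3/S, opposite in direction to KRT8 (-0.28 ± 0.10, adjusted p = 0.0476). Its other probe set was not called (-0.25 ± 0.12, adjusted p = 0.146).

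KRT7 and KRT19, the other simple-epithelium keratins, were lower in PC-3/Mc. KRT7, a type II keratin of ducts and glands, read 6.80, 6.74 and 7.05 in PC-3/Mc and 8.46, 8.33 and 8.43 in PC-3/S at probe set 209016_s_at. This was the largest fall among the members, at -1.54 ± 0.10 (adjusted p = 1.47e-07), and 3.23% of all probe sets differed by more in size. The lines were separated by more than a log2 unit at their nearest arrays.

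The other KRT7 probe sets did not show a fall of that size. At 1558393_at the arrays of the lines overlapped, with 5.86, 5.55 and 5.99 in PC-3/Mc and 5.93, 6.03 and 6.0 in PC-3/S (-0.18 ± 0.11, adjusted p = 0.248). At 214031_s_at the difference was -0.31 ± 0.10 (adjusted p = 0.0283) and at 1558394_s_at 0.05 ± 0.08 (adjusted p = 0.713), both under the floor in both lines. The call at 214031_s_at was kept in 4 of the 11 alternative analyses that held it. Within the arrays, 1558393_at was tested against 209016_s_at, in a limma fit over all 21316 pairs of a probe set with the brightest of its gene, of which 33.5% passed. Its difference between the lines departed from that of 209016_s_at by 1.36 ± 0.12 (adjusted p = 8.12e-06). Of 8 such contrasts for the members 5 passed, but 4 of these 5 involve a probe set under the floor in both lines, where little of a change could show, and they are not read further. The 2.91-fold difference of KRT7 was thus seen at 1 of the 2 probe sets that read above the floor. When the _x_at and _s_at classes were dropped KRT7 was not called (-0.18, adjusted p = 0.268).

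KRT19, a small type I keratin that lacks the usual tail domain, read 11.35, 11.21 and 11.28 in PC-3/Mc and 11.79, 11.75 and 11.74 in PC-3/S at 201650_at. The gap was small beside that of KRT7 but wider than the spread within either line (-0.48 ± 0.08, adjusted p = 0.000608). Its other probe set, 228491_at, lay under the floor in both lines and was not called (0.18 ± 0.11, adjusted p = 0.232).

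**Figure D2:**
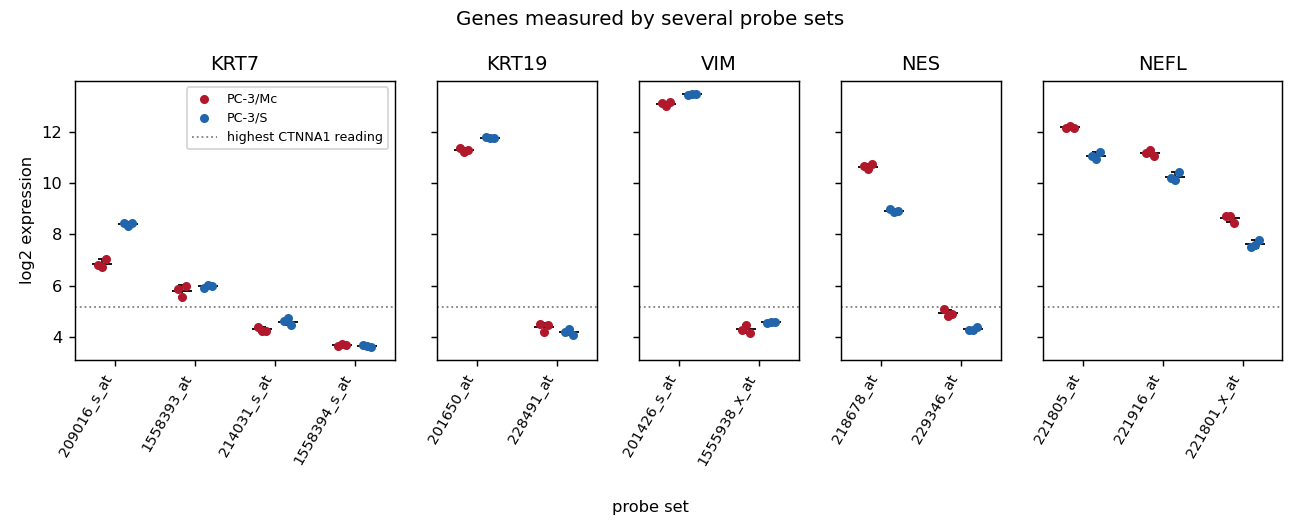
Log2 expression (y axis) of every probe set of the 5 genes with more than 1, in PC-3/Mc (red, left) and PC-3/S (blue, right) arrays with mean ± SD; the dotted line is the highest CTNNA1 reading, 5.18. The 3 NEFL probe sets keep PC-3/Mc above PC-3/S by similar distances, whereas the KRT7 gap of -1.54 appears at 209016_s_at and not at its dimmer probe sets. Those dimmer KRT7 probe sets lie near or under the dotted line, where a gap of that size could not show in full.

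Because keratins work as pairs, log2 ratios of keratin pairs within each array were compared between the lines, for 4 pairs chosen after the data were seen. The brightest probe set of each gene was used. A constant offset of a probe set cancels in the difference between lines but not in the ratio itself. A response that differs between probe sets does not cancel. Both ratios with KRT7 rest on 209016_s_at, whose fall was not seen at 1558393_at (-0.18 ± 0.11, adjusted p = 0.248 by limma). That probe set read too near the floor to show such a fall in full. Ratios with 1558393_at were not computed. The KRT8 over KRT18 ratio lay at -2.72 to -2.62 in PC-3/Mc and -2.63 to -2.39 in PC-3/S. These ranges overlapped, and the difference of -0.13 had an exact permutation p of 0.2 (two-sided). The KRT18 over KRT19 ratio, between type I chains, was 1.64 higher in PC-3/Mc, and the KRT8 over KRT7 ratio, between type II chains, was 2.57 higher. The KRT7 over KRT19 ratio differed by -1.06. For each of these last 3 no PC-3/Mc array fell within the PC-3/S range, with an exact permutation p of 0.1 (0.133 adjusted over the 4 pairs), the smallest p that 3 arrays against 3 allow, so none could pass the threshold.

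**Figure D3:**
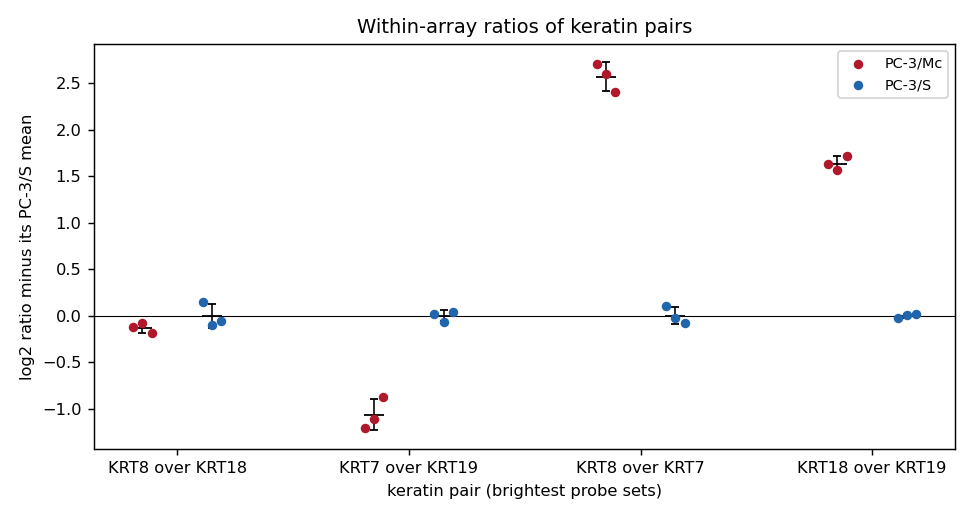
Within-array log2 ratio of 4 keratin pairs, minus the PC-3/S mean of that ratio (y axis, log2 scale), in PC-3/Mc (red, left) and PC-3/S (blue, right) arrays with mean ± SD. The KRT8 over KRT18 points of the lines overlap, while KRT8 over KRT7 stands 2.57 and KRT18 over KRT19 1.64 higher in PC-3/Mc. KRT7 is read at 209016_s_at alone, whose fall was not seen at 1558393_at, which lies too near the floor to show it in full.

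The basal keratins were lower in PC-3/Mc. KRT15, a type I keratin of basal cells and of hair follicle stem cells, read 6.53, 6.32 and 6.34 in PC-3/Mc and 7.31, 7.11 and 7.11 in PC-3/S (-0.78 ± 0.10, adjusted p = 3.71e-05). The highest PC-3/Mc array stayed under the lowest PC-3/S array. KRT5, the type II keratin of basal cells in stratified epithelia, read 4.75, 4.88 and 5.03 in PC-3/Mc and 5.26, 5.52 and 5.10 in PC-3/S, near the floor in both lines. Its difference of -0.41 ± 0.12 passed the test (adjusted p = 0.0163) but not without PC-3/Mc replicate 1 (-0.34, adjusted p = 0.0738), without PC-3/S replicate 2 (-0.29, adjusted p = 0.0769) or without moderation of the variance (adjusted p = 0.127). KRT14, the usual partner of KRT5, was under the floor at 4.14 ± 0.18 in PC-3/Mc, against 4.07 ± 0.13 in PC-3/S (adjusted p = 0.695).

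Vimentin was lower in PC-3/Mc by a small step. At 201426_s_at VIM read 13.12, 13.00 and 13.13 in PC-3/Mc and 13.41, 13.45 and 13.47 in PC-3/S. The arrays did not overlap, and the difference of -0.36 ± 0.08 passed the test (adjusted p = 0.00474), although 29.3% of all probe sets differed by more. Its other probe set, 1555938_x_at, lay under the floor in both lines (-0.28 ± 0.10, adjusted p = 0.0423). That call was kept in 1 of the 11 alternative analyses that held the probe set.

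Nestin gave the largest rise. NES read 10.65, 10.54 and 10.72 in PC-3/Mc and 8.97, 8.85 and 8.91 in PC-3/S at 218678_at, a difference of 1.73 ± 0.09 (adjusted p = 1.84e-08) that 2.46% of all probe sets exceeded in size. Each PC-3/Mc array lay more than a log2 unit above each PC-3/S array. At 229346_at both lines were under the floor, with 5.09, 4.82 and 4.90 in PC-3/Mc and 4.29, 4.28 and 4.38 in PC-3/S (0.62 ± 0.09, adjusted p = 0.000208).

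For NEFL, the neurofilament light chain, 3 probe sets gave the same direction. At 221805_at it read 12.13, 12.23 and 12.14 in PC-3/Mc and 11.04, 10.91 and 11.22 in PC-3/S (1.11 ± 0.10, adjusted p = 1.95e-06). At 221916_at the values were 11.15, 11.28 and 11.06 in PC-3/Mc and 10.18, 10.11 and 10.44 in PC-3/S (0.92 ± 0.11, adjusted p = 2.02e-05). The arrays of the lines stayed apart at both. The dimmest, 221801_x_at, read 8.70, 8.71 and 8.46 in PC-3/Mc and 7.49, 7.58 and 7.78 in PC-3/S (1.01 ± 0.11, adjusted p = 9.29e-06). The differences at 221916_at and 221801_x_at departed from that at 221805_at by -0.19 ± 0.10 and -0.10 ± 0.11, and neither departure passed the test (adjusted p = 0.193 and 0.554).

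Of 4 neuronal filament genes with which NEFL is known to co-assemble, given here after their values were seen, 3 read under the floor in both lines. NEFM averaged 4.24 ± 0.10 in PC-3/Mc, against 4.31 ± 0.06 in PC-3/S. NEFH averaged 4.27 ± 0.04 in PC-3/Mc, against 4.28 ± 0.03 in PC-3/S, and alpha-internexin (INA) 4.51 ± 0.14 in PC-3/Mc, against 4.53 ± 0.14 in PC-3/S. None of these 3 was called (adjusted p = 0.621, 0.947 and 0.896). Peripherin (PRPH), the fourth, read above the floor at 6.54 ± 0.18 in PC-3/Mc, against 6.33 ± 0.14 in PC-3/S, with overlapping arrays (0.22 ± 0.11, adjusted p = 0.171). Of the 4 measured neuroendocrine markers, chromogranin A (CHGA) and synaptophysin (SYP) read under the floor in both lines, NCAM1 was not called, and the neuronal enolase gene ENO2 was lower in PC-3/Mc (-0.54 ± 0.11, adjusted p = 0.00178).

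**Figure D4:**
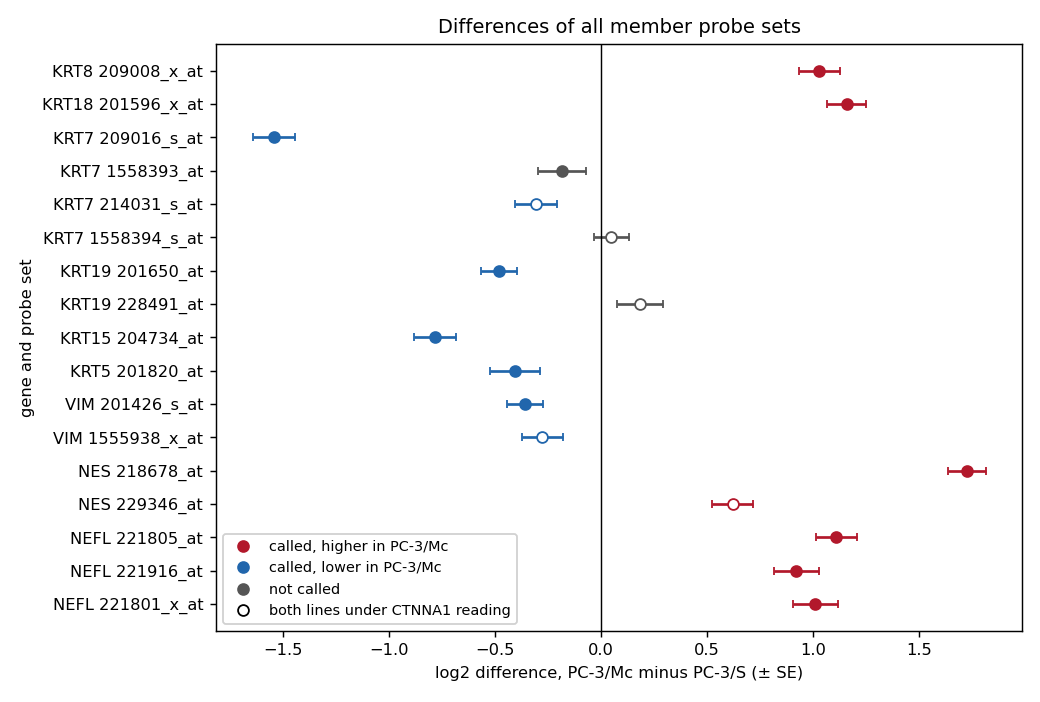
Log2 difference, PC-3/Mc minus PC-3/S (x axis), with its SE for each of the 17 probe sets, grouped by gene and ordered by brightness within a gene. Open symbols mark the 5 probe sets that read under 5.18 in both lines; the filled symbols run from -1.54 (KRT7) to 1.73 (NES).

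Most other keratins were near the floor. Of 47 listed, 37 were measured and 28 of these read under it in both lines. Of the 37, 2 were called higher (KRT75 and KRT3, the second under the floor in both lines), 9 lower and 26 not called. Over all genes 22.3% were higher and 21.4% lower, so the number called lower was near that share. The median difference was -0.12, against -0.03 for all genes. KRT75, a type II keratin of the hair follicle, stood out with 10.55, 10.38 and 10.50 in PC-3/Mc and 8.17, 8.14 and 8.16 in PC-3/S, a difference of 2.32 ± 0.09 (adjusted p = 1.08e-09) that was larger than that of any member. KRT37, a type I hair keratin, read 4.31, 4.55 and 4.31 in PC-3/Mc, under the floor, and 6.98, 6.88 and 7.11 in PC-3/S. It was at least 3.52-fold lower in PC-3/Mc (adjusted p = 1.50e-09). KRT33A, another hair keratin, was at least 1.94-fold lower in PC-3/Mc (adjusted p = 5.14e-07), on a probe set of the _x_at class that may also match its close relatives.

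Keratin genes lie in a type II cluster on chromosome 12, which also holds KRT18 next to KRT8, and in a type I cluster on chromosome 17. Of 21 measured genes on chromosome 12, 4 were higher (1 of them KRT3, under the floor in both lines), 5 lower and 12 not called, where 22.3% of all genes were higher and 21.4% lower. The order along the chromosome begins with KRT80 and KRT7, both lower in PC-3/Mc (-1.0 and -1.54), passes KRT75 (2.32) and KRT5 (-0.41), and ends with KRT8 (1.03) and KRT18 (1.16). On chromosome 17, 0 of 22 measured genes were called higher by limma (1 at an unadjusted p under 0.05), 8 were lower and 14 were not called. The share called there lay near the 43.7% of all genes. Of the 8 lower genes 7 lay among the 11 measured genes between KRT33A and KRT19. These were KRT33A, KRT37, KRT38, KRT32, KRT36, KRT15 and KRT19, and the stretch was chosen after its values were seen, so it has no test. The eighth was KRT10 (-0.64 ± 0.12). KRT36 and KRT38 read under the floor in both lines.

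**Figure D5:**
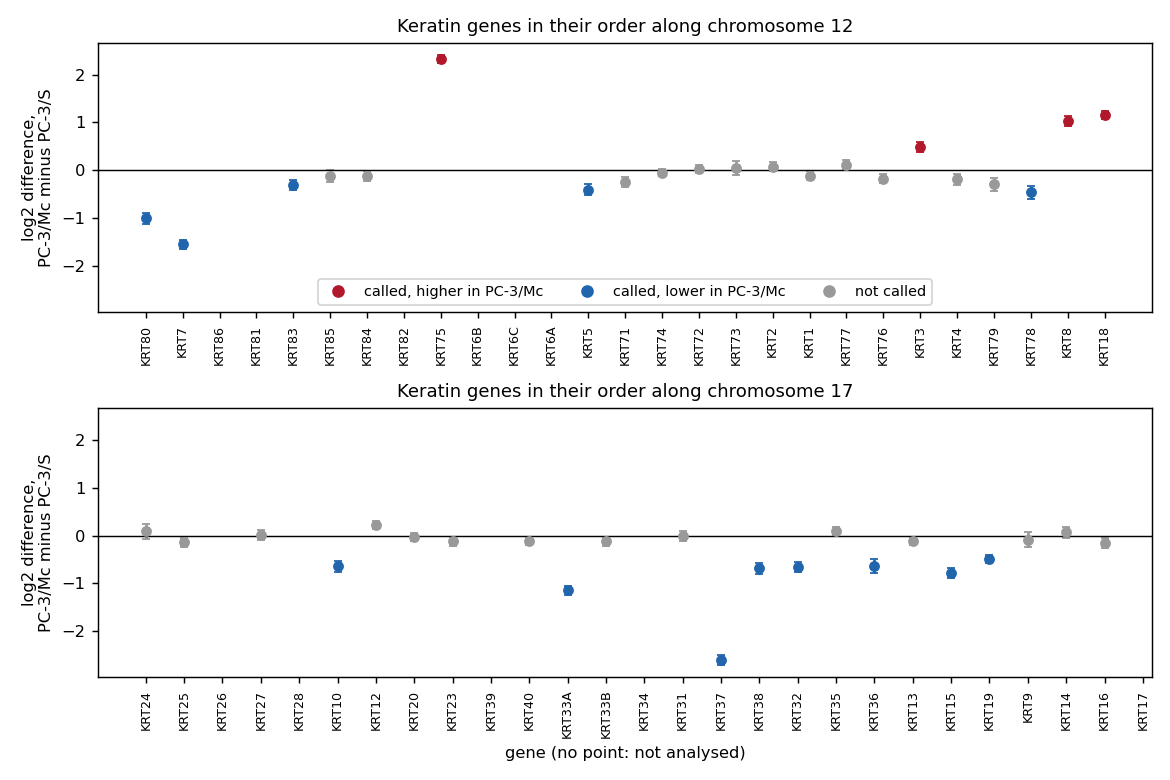
Log2 difference, PC-3/Mc minus PC-3/S, ± SE (y axes) of keratin genes at their brightest probe set, in gene order along chromosome 12 (top) and chromosome 17 (bottom), with red for called higher, blue for called lower and grey for not called. Neighbours KRT8 (1.03) and KRT18 (1.16) end the upper panel, and the lower panel holds 8 called genes, all lower in PC-3/Mc.

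Of 15 other intermediate filament genes, 2 were higher, 5 lower and 8 not called, with a median difference of -0.07. The number called was near the share of all genes, 43.7%. Both B-type lamins, which form the nuclear lamina, were higher in PC-3/Mc: LMNB1 at 7.96 ± 0.13 against 6.45 ± 0.12 in PC-3/S (1.51 ± 0.10, adjusted p = 1.87e-07) and LMNB2 at 8.77 ± 0.07 against 7.65 ± 0.14 in PC-3/S (1.12 ± 0.10, adjusted p = 1.79e-06). The A-type lamin gene LMNA averaged 10.42 ± 0.11 in PC-3/Mc, against 10.40 ± 0.05 in PC-3/S (adjusted p = 0.904). This is the brightest of its 6 probe sets, and the others are not shown. Lower in PC-3/Mc were SYNC, which encodes the filament protein syncoilin (-1.93 ± 0.12, adjusted p = 1.43e-07), and IFFO2 (-1.66 ± 0.12, adjusted p = 2.91e-07).

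Of 13 crosslinkers and keratin-binding proteins, 6 were higher, 3 lower and 4 not called, with a median of 0.01, where 22.3% of all genes were higher and 21.4% lower. Desmoplakin (DSP), which anchors keratin to desmosomes, read 10.30, 10.56 and 10.32 in PC-3/Mc and 3.98, 4.03 and 4.24 in PC-3/S. PC-3/S lay under the floor there, and the PC-3/Mc level was at least 37.3-fold higher (adjusted p = 1.78e-12). The integrin gene ITGB4, whose product links keratin to hemidesmosomes, was higher by 1.89 ± 0.11 (adjusted p = 5.27e-08), but was not called when the _x_at and _s_at classes were dropped (0.10, adjusted p = 0.624). SFN, the 14-3-3 protein known to bind KRT17 and KRT18, was higher by 1.33 ± 0.09 (adjusted p = 1.84e-07), periplakin (PPL) by 1.19 ± 0.10 (adjusted p = 9.82e-07) and FAM83H, which organises keratin bundles, by 1.00 ± 0.09 (adjusted p = 2.43e-06). Plectin (PLEC), the crosslinker that ties vimentin and keratin filaments to other structures, ran the other way, with 8.91, 8.78 and 8.88 in PC-3/Mc and 9.83, 9.87 and 9.87 in PC-3/S (-1.0 ± 0.08, adjusted p = 1.38e-06). It was named after its value was seen.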

How the data were processed

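RNA of PC-3/Mc and PC-3/S was measured on 6 one-colour arrays, grouped by their titles. The authors deposited log2 expression values for 54675 probe sets; the sources used here do not give the software, background correction or scaling. The base was read from the values, whose highest, 14.45, is a linear signal of 22358 in base 2 and 1883185 in base e, beyond a scanner's range. Values are not centred per gene; the target of the scaling stays unknown. Medians over the probe sets of each array were 5.00, 4.98 and 5.05 in PC-3/Mc, against 5.06, 5.09 and 5.02 in PC-3/S.

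After removal of 62 control probe sets, limma 3.58.1, run under R 4.3.3, fitted the line difference without covariates over 54613 probe sets (lmFit, then eBayes; two-sided). Of these, 41091 had 1 gene symbol, 1801 several and 11721 none; only the first were named. The median SE was 0.098, and the number of arrays limits the precision. Each listed gene was represented by the probe set with the highest mean. Within-gene contrasts were fitted likewise. Fits were tested on simulated data. Named genes were every member probe set and, in each list, called genes of at least 2-fold difference whose arrays did not overlap and whose higher mean reached the median of all probe sets (5.05), up to 5 a direction. The members and lists were chosen with earlier results of these data known. Alternatives changed the normalization, filters, unit, variance model, block and replicates.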

Additional observations from a re-analysis of the deposited data

How the results depend on the processing

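Alternatives gave 504 further values for single probe sets, genes and ratios and 83 counts; 482 of the values kept direction and side of the threshold, 21 lost a call and 1 turned sign, while 78 counts stayed within 1.5 times. The 8 brightest readings of NES, KRT18, NEFL, KRT8, KRT7, KRT15, KRT19 and VIM kept their calls under every alternative that held their probe set. The 14 called probe sets became 7 with _x_at and _s_at probe sets left out and 9 with 1 probe set a gene. Leaving out those classes removes every probe set of KRT8, KRT18 and VIM. It also removes the called KRT7 probe sets, 209016_s_at and 214031_s_at, and NEFL 221801_x_at. Genes called numbered 9 with 1 probe set a gene, as reported, and 5 of 6 with _x_at and _s_at probe sets left out. The called within-gene contrasts, 5 as reported, became 2 without _x_at and _s_at probe sets and 1 without probe sets below the 40th percentile; in both, fewer were tested. The within-gene contrast of VIM 1555938_x_at, which lies under the floor in both lines, turned to -0.046 (adjusted p = 0.810) without PC-3/Mc replicate 2, in a range of -0.046 to 0.172 over the fits that left out 1 array; the cause was not tested. Lost calls fell on KRT5, on VIM 1555938_x_at (adjusted p = 0.0594 to 0.123), on KRT7 214031_s_at (adjusted p = 0.0519 to 0.124) and on ITGB4. Same-numbered arrays did not deviate together (r = -0.0061, -0.21 and -0.31), so no pairing by number was seen. With 3 arrays per line these values cannot exclude a pairing. A replicate block gave 12 called probe sets and 9 genes. The partner ratios and their alternatives were added after seeing the data. These alternatives are counted among the 504 values. Their exact permutation p could not fall below 0.1, so the side of the threshold they kept was fixed in advance. No scanner files were used here, so background correction was not varied, and readings at the floor limit what dim probe sets can show.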
